A study of Bos taurus with 64 samples.

Results

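SLC16A6, also called MCT7, encodes a membrane protein of the monocarboxylate transporter family, and its mRNA was followed in the muscles of Normand cows by 1 array probe that carries the gene's name, of 13285 probes beside the control features. It is 1 of the 5449 gene names and other target names on the array. The cows, 4.5 years old on average, were slaughtered after limited stress or after physical and psychological stress. The stressed cows, called moderated stress in the sample labels, were transported alone and driven through a labyrinth on an unknown farm for 30 minutes, whereas the cows handled with limited stress travelled with a companion and were handled calmly. Every cow was finished for 101 days on a ration of straw and concentrate enriched with lipids of extruded linseed and rapeseed. This ration alone was the control diet, and the EP diet held vitamin E and plant extracts rich in polyphenols besides. The M. longissimus thoracis (LT), a muscle of the back, and the M. semitendinosus (ST), a muscle of the hind limb, were excised within 15 minutes of slaughter from each of 32 cows, 8 for each combination of stress and diet, which gave 64 single-colour arrays. The gene was chosen for description because of its difference between stressed and limited stress cows in these same arrays, so that difference is given with no test, and the tests below concern diet, muscle and the cow.

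The members of the SLC16 family carry small organic acids across membranes. SLC16A1, SLC16A3 and SLC16A7 move lactate, pyruvate and ketone bodies together with a proton, and SLC16A3 is the exporter of lactate that is abundant in glycolytic muscle fibres. SLC16A6 is known from the liver of zebrafish, where it is needed to release the ketone body 3-hydroxybutyrate during fasting, and it has also been described as a transporter of taurine. Its role in bovine muscle is less well known than those of the lactate carriers.

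The probe named SLC16A6 is 60 bases long and starts at position 1494 of the transcript it was designed on. The file annotation places it on chr19:63724552-63724611 in the assembly Btau_3.1, and the annotation table used here, made on another assembly, also lists SLC16A6 on chromosome 19. The array also holds a custom set of 5 probes without a gene name, labelled Target1545, and 1 probe of this set overlaps the named probe. The sequences of these probes are shown because the overlap is what ties the unnamed set to the gene. The capitals mark the 37 bases that they share, which are bases 1 to 37 of the named probe and bases 24 to 60 of the set probe:
SLC16A6 probe: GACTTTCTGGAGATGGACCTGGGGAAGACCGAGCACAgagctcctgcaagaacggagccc
Target1545 probe 1: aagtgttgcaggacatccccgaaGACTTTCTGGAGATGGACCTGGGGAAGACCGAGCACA
No other probe of the array shared 25 or more bases in a row with any of these 6 probes. The named probe and the 5 set probes were all well above background on 64 of 64 arrays, none was saturated and none was set aside as uneven. After the means of the 8 groups of muscle, stress and diet were subtracted, the correlation of the named probe with the set probes over the 64 arrays was 0.99 for the overlapping probe and 0.97 for the others, as a description. The arrays share their scaling, so this correlation counts the same labelled RNA each time.

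A level here is the processed signal of a spot divided by the 75th percentile of its array, on the log2 scale, so that a value of 0 is a signal equal to that percentile. The 75th percentile was between 2760 and 3988 units on the LT arrays and between 2470 and 4202 units on the ST arrays, and between 71.4 and 80.9% of the spots gave a signal well above background. No slide and no scan day held arrays of both muscles: the LT arrays lay on 4 slides scanned on 2 days and the ST arrays on 5 slides scanned on 3 days. The precision is limited by the number of cows, 8 per group. The muscle fibre markers ACTA1, CKM, MB, DES and TNNT1 were each well above background on all 64 arrays, whereas of the blood cell probes HBB was well above background on 13 LT and 7 ST arrays and ALAS2 on 2 and 0.

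In the LT, SLC16A6 was low in cows handled with limited stress and higher in stressed cows, with the gap clearest on the control diet. In limited stress cows on the control diet the lowest, the median and the highest LT level were -4.09, -2.63 and -2.26, and the mean was -2.78 ± 0.58 (SD, n = 8 cows). In stressed cows on the control diet they were -2.23, -0.88 and -0.83, and the mean was -1.09 ± 0.48 (SD, n = 8 cows). Each of these 8 stressed cows was above each of the 8 limited stress cows, by a narrow margin for cow305, the lowest stressed cow. The other stressed cows of this group lay close together, between -1.25 and -0.83. On the EP diet the limited stress cows had LT levels of -3.79, -2.77 and -1.91 at the lowest, the median and the highest, with a mean of -2.84 ± 0.66 (SD, n = 8 cows). The stressed cows on the EP diet had -2.85, -2.004 and -0.43, with a mean of -1.76 ± 0.76 (SD, n = 8 cows). Here the groups overlapped, and 3 of 8 stressed cows exceeded the highest limited stress cow, cow314. Over both diets the median deposited signal was 558 units in limited stress cows and 1544 units in stressed cows.

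In the ST, the levels were lower than in the LT in each group, and the stressed cows again stood above most limited stress cows. In limited stress cows on the control diet the lowest, the median and the highest ST level were -4.78, -3.88 and -2.36, with a mean of -3.67 ± 0.89 (SD, n = 8 cows). In stressed cows on the control diet they were -3.22, -1.48 and -1.15, with a mean of -1.83 ± 0.73 (SD, n = 8 cows). The overlap came from the limited stress cow255 and cow302, which at -2.36 and -2.48 lay above the other 6 cows of their group, the highest of them at -3.31. Of the stressed cows, cow305, the lowest in this muscle as well, was below both of them. The stressed cow311, at -2.41, was below cow255. On the EP diet the ST levels of limited stress cows were -4.80, -3.85 and -2.95, with a mean of -3.85 ± 0.63 (SD, n = 8 cows). Those of stressed cows were -3.10, -2.16 and -1.67, with a mean of -2.28 ± 0.52 (SD, n = 8 cows). All but 1 of these 8 stressed cows, cow330, were above every limited stress cow of the same diet. Over both diets 11 of 16 stressed cows exceeded the highest limited stress cow in the ST, and 10 of 16 did so in the LT.

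**Figure D1:**
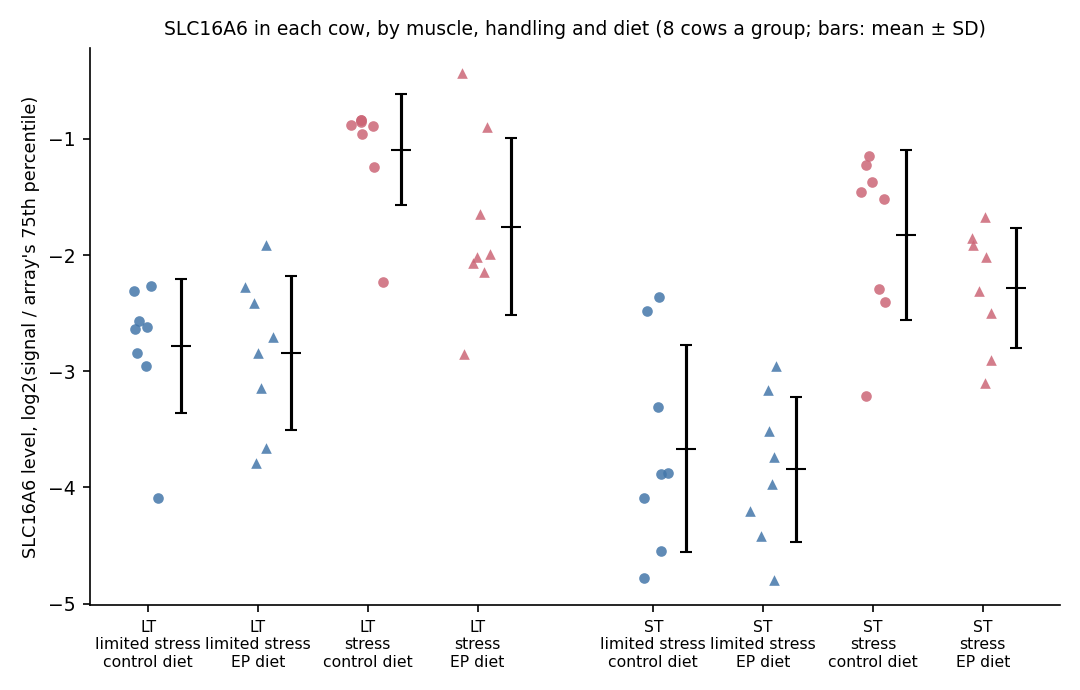
SLC16A6 level of each cow, as log2 of the signal over the array's 75th percentile (vertical axis), in the 8 groups of muscle, stress and diet (horizontal axis). Points are cows (circles, control diet; triangles, EP diet; blue, limited stress; red, stress) and bars are the mean ± SD of 8 cows. The stressed cows sit higher in each muscle and diet, and in the LT on the control diet the lowest stressed cow, at -2.23, is just above the highest limited stress cow, at -2.26.

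The difference that chose the gene was 1.39 ± 0.21 (log2 difference ± SE, stress minus limited stress, n = 16 cows per group) in the LT, a 2.62-fold higher signal. In the ST it was 1.70 ± 0.24, a 3.25-fold higher signal. Among all probes tested for this contrast with limma at an adjusted p under 0.1, 4.38% passed in the LT and 4.23% in the ST, and nothing is read from these shares for a gene chosen by this contrast. By diet, the difference in the LT was 1.69 ± 0.30 on the control diet and 1.08 ± 0.30 on the EP diet. In the ST it was 1.84 ± 0.34 on the control diet and 1.56 ± 0.34 on the EP diet. The difference of the LT minus that of the ST was -0.31 ± 0.33. Taken slide by slide, the stressed cows had the higher mean on each of the 4 LT slides, by 0.84 to 1.61, and on each of the 5 ST slides, by 1.15 to 2.41. The highest of these came from a slide with 6 stressed cows and 1 limited stress cow. Without this slide the difference in the ST was 1.49. In bulk muscle, a change in the share of a cell type and a change in the RNA per cell cannot be told apart.

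The 5 set probes followed the named probe in these differences. In the LT the differences of the set probes between stressed and limited stress cows lay between 1.31 and 1.52, and in the ST between 1.45 and 1.72. The set is thus a second reading of the same labelled RNA, not of other cows.

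**Figure D2:**
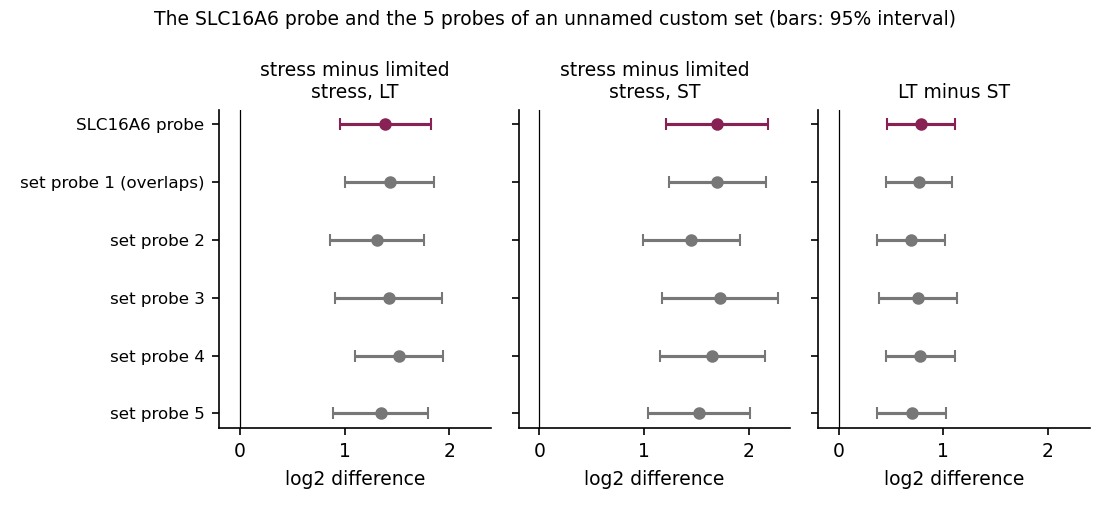
Log2 differences with 95% intervals (horizontal axis) of the SLC16A6 probe (purple) and of the 5 probes of the custom set (grey), for stress minus limited stress in the LT and the ST and for LT minus ST. The stress differences were the basis on which the gene was chosen; the 6 probes lie between 1.31 and 1.72 for these and between 0.69 and 0.79 for the muscles.

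Ordered by their means, the groups ran from stressed cows on the control diet in the LT (-1.09) through stressed cows on the EP diet in the LT (-1.76), then stressed cows on the control diet (-1.83) and on the EP diet (-2.28) in the ST. The limited stress cows followed, with the LT on the control diet (-2.78) and on the EP diet (-2.84), and last the ST on the control diet (-3.67) and on the EP diet (-3.85). In 5 of the 7 pairs of neighbours in this order the means differed by less than the SD of the pair, and the ranges overlapped in all 7. The gaps wider than the SD lay between the diets of stressed cows in the LT and between the limited stress LT and ST groups on the EP and the control diet, respectively. This order is a description, since it holds the contrast that chose the gene.

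The next comparison asked whether the EP diet changed the level of SLC16A6 and its difference between stressed and limited stress cows. The level was lower on the EP diet by point estimate in both muscles, and no diet comparison passed the threshold after adjustment over all probes. In the LT the difference, EP minus control diet, was -0.36 ± 0.21 (SE; 95% interval -0.80 to 0.08; limma, adjusted p = 0.98, n = 16 cows per diet). In the ST it was -0.32 ± 0.24 (95% interval -0.81 to 0.17; limma, adjusted p = 0.95, n = 16 cows per diet). These intervals still hold a level lower by up to 0.80 and 0.81 on the log2 scale. No probe of the array passed the adjusted threshold for diet (0% of 10441 LT probes and 0% of 10305 ST probes), and 3.9% and 5.15% had an unadjusted p under 0.05.

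The difference between the diets was widest among stressed cows of the LT. There 7 of 8 cows on the EP diet were below the median of the cows on the control diet, and the exception was cow299, at -0.43 the highest LT level of all 32 cows. The difference in these cows was -0.67 ± 0.30 (SE; 95% interval -1.28 to -0.05), with an unadjusted p of 0.0357 and an adjusted p of 0.66 by limma. In the same contrast 7.31% of the LT probes had an unadjusted p under 0.05 and 0% passed after adjustment. In stressed cows of the ST all 8 cows on the EP diet were below the median of the cows on the control diet, while none was below the lowest of these, cow305. The ST difference in stressed cows was -0.46 ± 0.34 (SE; 95% interval -1.15 to 0.24; limma, adjusted p = 0.71), beside 7.65% of the ST probes at an unadjusted p under 0.05. Of these stressed cows, 5 on the control diet and 1 on the EP diet lay on 1 slide, so diet and slide are partly mixed here. On the other slides the control diet cows were at -1.45, -2.29 and -3.22, and the EP diet cows between -2.90 and -1.67. With slide as a block the difference was -0.57 ± 0.42 (limma, adjusted p = 0.65). In limited stress cows the difference was -0.06 ± 0.30 in the LT (95% interval -0.67 to 0.56) and -0.18 ± 0.34 in the ST (95% interval -0.87 to 0.51), and neither passed the threshold (0% of all probes did).

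The interaction of stress and diet was -0.61 ± 0.43 in the LT (SE; 95% interval -1.48 to 0.27; limma, adjusted p = 0.9999), that is, a smaller difference between stressed and limited stress cows on the EP diet by point estimate. In the ST it was -0.28 ± 0.48 (95% interval -1.26 to 0.70; limma, adjusted p = 0.97). Neither passed the threshold, nor did any other probe (0% of those tested, with 2.64% at an unadjusted p under 0.05 in the LT and 4.76% in the ST). The diet difference was not shown to differ between the muscles either (LT minus ST, -0.04 ± 0.33; limma, adjusted p = 0.9999, beside 0% of all probes). In the ST the diet estimate depended on the slide with 6 stressed cows, which held 5 of the 8 stressed cows on the control diet: without it, the difference was 0.012. With slide as a block it was -0.35 ± 0.27. Slide by slide and with stress in the model, it ran from -1.56 to 1.03 in the ST, below 0 on 3 of 5 slides, and from -0.97 to 0.35 in the LT, below 0 on 3 of 4 slides. Each ST extreme rested on 1 EP cow: cow330 beside 5 stressed control diet cows, and cow314 beside 2 limited stress control diet cows.

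**Figure D3:**
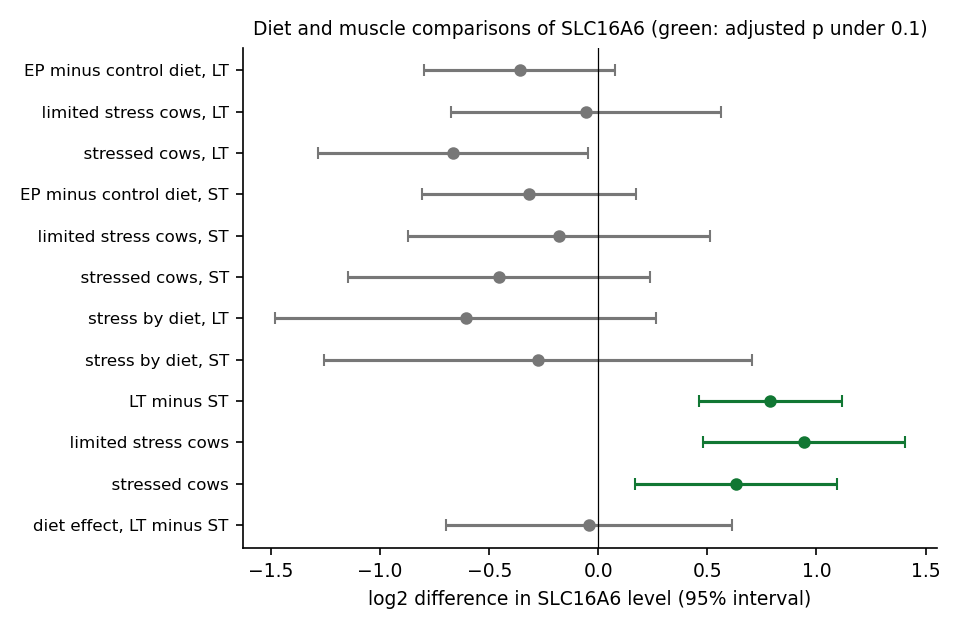
Log2 differences in SLC16A6 level with 95% intervals (horizontal axis) for the comparisons that did not choose the gene (vertical axis; indented rows are subsets of cows). Green marks an adjusted p under 0.1: the 3 muscle differences, from 0.63 to 0.94, passed, and the diet and interaction estimates, from -0.67 to -0.04, did not.

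The comparison of the muscles asked whether the back muscle and the hind limb muscle of a cow held the same level of SLC16A6. The LT level was higher than the ST level in 30 of 32 cows. The difference within a cow, LT minus ST, had a lowest value of -0.32 in cow251, a median of 0.80 and a highest value of 1.96 in cow280. The cows with the higher level in the ST were cow251, stressed and on the EP diet, and cow302, handled with limited stress and on the control diet, at -0.15. Over all cows the difference was 0.79 ± 0.16 (SE, 95% interval 0.46 to 1.11, 32 arrays per muscle), a 1.73-fold higher signal in the LT, and it passed the threshold (limma, adjusted p = 5.4e-05). In this comparison 58.2% of all 10254 probes passed in either direction and 26.6% were higher in the LT, so that passing it is common on this array, and 1.63% of the probes had a difference as high as that of SLC16A6. This fit holds no term for the cow. With cow as a replicate block the difference was 0.79 ± 0.12 (limma, adjusted p = 7.0e-08), beside 68.5% of all probes past the threshold.

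The muscle difference held in each stress group. In limited stress cows it was 0.94 ± 0.23 (SE; 95% interval 0.48 to 1.41; limma, adjusted p = 9.4e-04), beside 44.1% of all probes past the threshold. The LT was higher in 15 of 16 of these cows, with a mean difference within a cow of 0.94 ± 0.58 (SD, n = 16 cows). In stressed cows it was 0.63 ± 0.23 (95% interval 0.17 to 1.09; limma, adjusted p = 0.028), beside 42% of all probes, and the LT was higher in 15 of 16 cows. The stressed estimate did not pass with the scan day as a random block (adjusted p = 0.12) or with the control features as scaling (adjusted p = 0.18). With cow as a replicate block its adjusted p was 0.0015 (limma). With the slide as a random block the overall difference was 0.77 ± 0.22 (adjusted p = 0.0039), and with the scan day as a random block it was 0.79 ± 0.25 (adjusted p = 0.010). Since no slide or scan day held both muscles, no value within a slide exists for this comparison, and the muscle and the batch cannot be told apart. The 5 set probes gave differences between 0.69 and 0.78, all 5 past the threshold.

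Fibre type genes moved with this comparison. Of the 8 tested genes of slow fibres, 6 were higher in the LT, beside 21.9% of all transcripts higher and 29.9% lower, led by TNNT1, the slow troponin T (0.91 ± 0.12, adjusted p = 9.8e-09), and TNNC1, the slow troponin C (0.50 ± 0.09, adjusted p = 4.1e-06), and MYH7, the slow myosin heavy chain, was lower (-0.11 ± 0.04, adjusted p = 0.0060), though higher by estimate with the control features as scaling (0.10) or no scaling (0.018). All 5 tested genes of fast fibres were lower, by at most 0.17, and with the control features as scaling none of them passed and 4 of the 5 were no longer lower. With no scaling none of them passed either, and 2 of the 5 were no longer lower. Summed signals of the slow and the fast genes are on a log2 scale other than that of the levels above. They compare the muscles only. For the slow genes the sum ran from 14.4 to 15.1 in the LT and from 13.9 to 15.1 in the ST. For the fast genes it ran from 15.2 to 15.7 in the LT and from 15.3 to 15.8 in the ST. Of the 5 general muscle fibre markers, TNNT1, also in the slow list, was higher in the LT as given above. ACTA1, CKM, MB and DES were lower in the LT, from -0.33 to -0.15. With the control features as scaling none of these 4 passed, and ACTA1 and MB were no longer lower. With no scaling ACTA1 and MB did not pass (limma, adjusted p = 0.16 and 0.69). Besides these, PECAM1, a vessel gene (0.34 ± 0.10), was higher in the LT, and COL1A1, a collagen of fibroblasts, was lower (-0.48 ± 0.19), though it did not pass with the control features as scaling (adjusted p = 0.31), with no scaling (adjusted p = 0.14) or with slide as a block (adjusted p = 0.13). The 4 fat cell genes, the immune cell gene PTPRC and the liver gene APOA1 did not pass, and the blood cell genes were too dim to be tested in both muscles. The part of these in the SLC16A6 difference was not tested. For stress, no marker of a fibre or other cell type passed in limma, 0 of 29 LT and 0 of 28 ST genes tested. Of all transcripts, 3.73% passed in the LT and 3.6% in the ST, and 0 is near that share for lists of this size. At an unadjusted p under 0.05, 0 of the LT genes and 3 of the ST genes (ACTA1, MYL3 and ADIPOQ) differed. The share of all probes at this p is not given, so nothing is read from these counts.

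Cows that were high in one muscle tended to be high in the other. Within the stress groups, with the diet means subtracted, the LT and ST levels correlated at r = 0.65 in limited stress cows (n = 16; permutation test with 100000 resamples, two-sided, p = 0.0064, adjusted p = 0.0095) and at a Spearman rho of 0.72 (permutation p = 0.0022, adjusted p = 0.0043). In stressed cows r was 0.62 (n = 16; permutation p = 0.0095, adjusted p = 0.0095) and rho was 0.44 (permutation p = 0.091, adjusted p = 0.091). The adjustment covers the 2 stress groups. Without the cows farthest from the median LT level, r was 0.52 in limited stress cows (without cow270 and cow286, permutation p = 0.057, n = 14) and 0.25 in stressed cows (without cow305 and cow330, permutation p = 0.39, n = 14). The Spearman rho without these cows was 0.56 (permutation p = 0.041) and 0.11 (permutation p = 0.70). The stressed cow305 and cow330 were low in both muscles. Leaving out the farthest cows also narrows the range of levels, so what the relation in stressed cows rested on was not tested. The batch values are those with slide means subtracted, where r was 0.66 and 0.69 and rho was 0.70 and 0.61. In stressed cows rho was 0.58 with the control features as scaling and 0.40 with normexp and quantile. A slide held at most 6 cows of a stress group, so no correlation was computed within a slide.

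**Figure D4:**
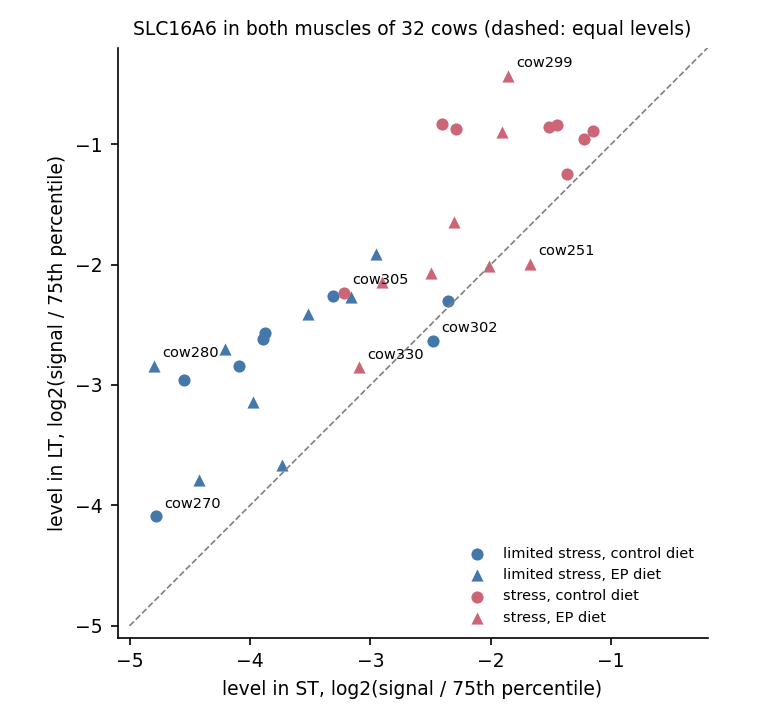
Level of SLC16A6 in the LT (vertical axis) against the ST (horizontal axis) of the same cow, both as log2 of the signal over the 75th percentile, for 32 cows (circles, control diet; triangles, EP diet; blue, limited stress; red, stress). The dashed line marks equal levels: 30 cows lie above it, and the labelled cows are among those named in the text.

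None of the 4 other transporters tested passed for stress, and 0 is near the share of all transcripts for a list of this size. SLC16A1 was not among the 4. Of 16 listed genes of monocarboxylate transport beside SLC16A6, 6 had a probe that could be matched and 4 were tested in both muscles, and 0 of the 4 passed the limma threshold for stress in either muscle, with a smallest adjusted p of 0.22, beside 3.73% of all transcripts in the LT and 3.6% in the ST. SLC16A3, the lactate exporter, had a difference, stress minus limited stress, of -0.10 ± 0.16 (LT, ± SE) and -0.03 ± 0.12 (ST). SLC16A7, a pyruvate and lactate carrier with 2 probes, differed by 0.08 ± 0.31 and -0.03 ± 0.35. SLC16A5 differed by -0.22 ± 0.09 and -0.08 ± 0.08, and SLC16A11, named here from its description in the files, by -0.13 ± 0.06 and -0.06 ± 0.08. The median over the 4 genes was -0.12 in the LT and -0.04 in the ST, beside -0.05 and -0.06 over all transcripts. At an unadjusted p under 0.05, SLC16A5 and SLC16A11 were lower in stressed cows in the LT and 0 of the 4 differed in the ST. The share of all probes at this p is not given, so nothing is read from this count. SLC16A4 and the sodium-coupled carrier SLC5A12 were well above background on 0 arrays.

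Between the muscles, 3 of the other transporters differed, opposite in direction to SLC16A6. The LT was lower for SLC16A3 (-0.48 ± 0.10, LT minus ST ± SE; limma, adjusted p = 7.6e-05), SLC16A5 (-0.30 ± 0.06, adjusted p = 4.2e-05) and SLC16A7 (-0.56 ± 0.24, larger adjusted p of its 2 probes, 0.056), and each kept this direction under every scaling tried, though none passed with the control features as scaling and SLC16A7 did not with no scaling (adjusted p = 0.19) or with slide as a block (adjusted p = 0.18). SLC16A11 did not pass (0.07 ± 0.05), but was higher with the control features as scaling (0.26, adjusted p = 0.092) and with no scaling (0.20, adjusted p = 0.0016), and lower by estimate with normexp (-0.10). In all 0 of the 4 were higher and 3 were lower in the LT, beside 21.9% of all transcripts higher and 29.9% lower, and with the control features as scaling 1 was higher and 0 were lower.

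**Figure D5:**
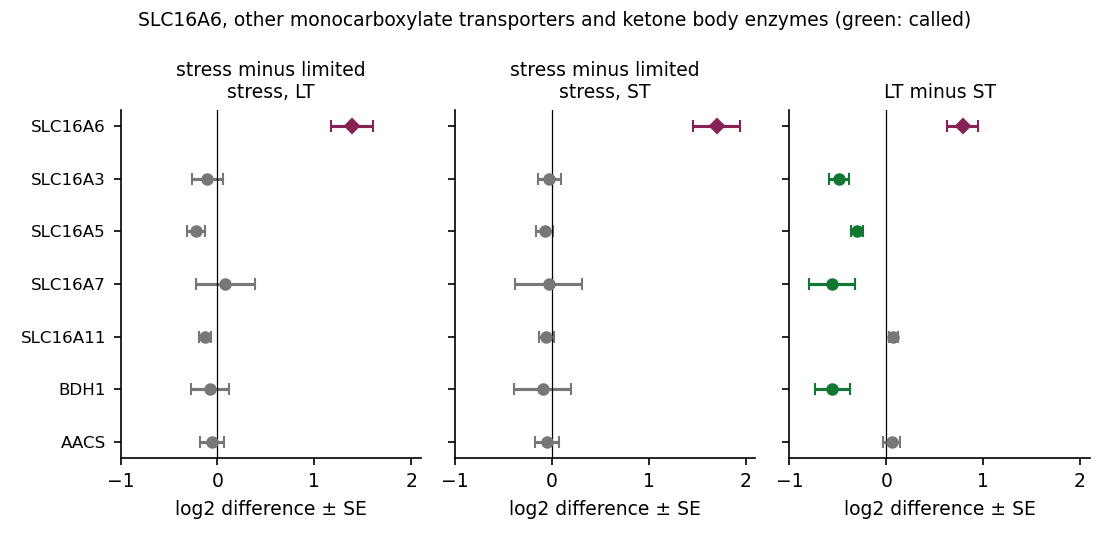
Log2 differences ± SE (horizontal axis) of SLC16A6 (purple) and of the listed monocarboxylate transporters and ketone body enzymes with a tested probe (vertical axis), for stress minus limited stress in each muscle and for LT minus ST. Green marks genes past the threshold: none for stress, and 4 of these 6 for the muscles, all lower in the LT.

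The enzymes that make or use the substrates of these carriers were read from the same fits. Of 8 listed genes of ketone body metabolism, 2 were tested and 0 passed for stress in limma. Of all transcripts, 3.73% passed in the LT and 3.6% in the ST, and 0 is near that share for a list of this size. BDH1, the mitochondrial 3-hydroxybutyrate dehydrogenase, named here from its description, differed by -0.08 ± 0.20 (LT) and -0.09 ± 0.30 (ST), and AACS, the cytosolic acetoacetate-activating enzyme, by -0.05 ± 0.12 in each muscle. At an unadjusted p under 0.05, 0 of the 2 differed in either muscle, and with no share of all probes given at this p nothing is read from it. Between the muscles, BDH1 was lower in the LT (-0.56 ± 0.18, adjusted p = 0.0077; 0.15 with the control features as scaling), and AACS did not pass (0.06 ± 0.09).

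Of 21 listed genes of lactate and pyruvate metabolism 14 were tested. For stress 1 was higher in each muscle in limma, beside 2.2% of all transcripts in the LT and 1.48% in the ST. This was PDK4, a kinase that shuts the pyruvate dehydrogenase complex, by 3.39 ± 0.33 in the LT (adjusted p = 3.2e-08) and 3.36 ± 0.33 in the ST (adjusted p = 4.0e-08). The list was chosen with results of these arrays known, so this stress count and its p values are a description. The lactate dehydrogenase LDHA differed by -0.0093 ± 0.06 and -0.07 ± 0.06. Between the muscles 6 were higher and 6 lower in the LT, beside 21.9% of all transcripts higher and 29.9% lower. With the control features as scaling 0 of the lower ones passed and 3 of them were no longer lower. Here GPT, which interconverts alanine and pyruvate (0.72 ± 0.09, adjusted p = 2.2e-09), PC, pyruvate carboxylase (0.45 ± 0.06, adjusted p = 2.2e-09), PDK4 (1.22 ± 0.24, adjusted p = 2.0e-05) and DLAT, a subunit of pyruvate dehydrogenase (0.33 ± 0.07, adjusted p = 6.0e-05), had the smallest adjusted p. No gene of these lists passed for diet in limma, as no probe of the array did, and no listed gene of taurine metabolism could be matched to a probe.

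Glucocorticoid target genes were listed because cortisol rises in stressed cattle. Of 24 listed genes 6 were tested, and 3 were higher in stressed cows of each muscle, beside 2.2% of all transcripts in the LT and 1.48% in the ST: CEBPD, a transcription factor (1.68 ± 0.22 in the LT, adjusted p = 3.1e-06, and 1.36 ± 0.23 in the ST, adjusted p = 3.2e-04), GADD45A, a growth arrest gene (1.16 ± 0.17, adjusted p = 1.5e-05, and 1.20 ± 0.16, adjusted p = 8.1e-06), and DUSP1, a phosphatase of MAP kinases (0.34 ± 0.11, adjusted p = 0.099, and 0.38 ± 0.11, adjusted p = 0.050; past the threshold in neither muscle with the control features as scaling). DUSP1 also passed in neither muscle with normexp, and not in the LT with no scaling (limma, adjusted p = 0.13). The median over the 6 genes was 0.74 in the LT and 0.39 in the ST, beside -0.05 and -0.06 over all transcripts. These lists were chosen with results of these arrays known, so the stress counts and their p values are a description. Between the muscles DUSP1 was higher in the LT (0.65 ± 0.08, adjusted p = 2.9e-10), and MT2A, a metallothionein, GADD45A and CEBPD were lower (-1.15 ± 0.18, -0.39 ± 0.12 and -0.42 ± 0.16). GADD45A and CEBPD did not pass with the control features as scaling (adjusted p = 0.36 and 0.37), nor did CEBPD with no scaling (adjusted p = 0.14) or with slide as a block (adjusted p = 0.11).

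The genes whose levels ran most like SLC16A6 from cow to cow were found after the means of the 8 groups were subtracted, over 64 arrays of which each cow gave 2. This is a description with no test, over 1920 named genes tested in both muscles, whose correlation with SLC16A6 had a median of 0.01. The 8 highest were CAMK1, a calcium-dependent kinase (r = 0.53), CKS2, a partner of cyclin-dependent kinases (0.52), MAPRE2, a microtubule end protein (0.49), LOXL4, a lysyl oxidase of the matrix (0.48), EIF2AK3, a kinase of the unfolded protein response (0.47), BRCA1 (0.46), NID1, a basement membrane protein (0.45), and MTFR1, a regulator of mitochondrial fission (0.45). The 3 lowest were RPL30 (-0.49) and RPS24 (-0.49), proteins of the ribosome, and the protease inhibitor SERPINB6 (-0.48). None of these 11 passed the threshold for stress in either muscle. The 8 changed in part with the processing: 4 were kept under the control feature scaling, 4 with normexp and quantile normalization, and 5 with slide means subtracted. The glucocorticoid targets were not near the top as a list (median r = 0.03, from -0.16 to 0.33 over 6 genes), while the 4 fibroblast genes had a median r of 0.35, the highest of the lists. The muscle fibre, slow fibre and fast fibre lists had medians of -0.23, -0.18 and -0.16, and the vessel gene PECAM1 had 0.22. The residual level of SLC16A6 correlated at 0.28 with the log2 share of spots well above background, and what part this had in the likeness was not tested.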

How the data were processed

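Muscle RNA was measured on 64 single-colour Agilent arrays, 1 per muscle of each cow. The authors read the arrays with Feature Extraction 10.1.1.1, and the deposited intensity of a spot, the processed signal, is background-subtracted and detrended per the file headers. The deposited table of intensities equals the array files on 64 of 64 arrays, so the scaling and log2 steps of the methods are not in it. The groups came from the sample labels.

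Here each array was divided by the 75th percentile of its spots that are not controls and log2 transformed. The methods divide by the median of the control probes. These files hold 536 control features, fewer than the control probes the paper counts, so the sets may differ. The median of these features was 1.73 to 6.36 units, near background, and was kept as an alternative. Spots set aside as outliers were dropped, spots of a probe averaged, and a probe was tested in a muscle where 11 or more of its 32 arrays were well above background, and between the muscles where it passed in both. limma 3.58.1 in R 4.3.3 fitted the 4 groups of a muscle or all 8 groups, two-sided, with Benjamini-Hochberg adjustment over all probes and a threshold of 0.1. A gene passed when 80% of its tested probes did, in the same direction, and its value is the mean over its probes. The plan took the SLC16A6 stress contrast as a description because the gene was chosen for it. The period of slaughter in the methods' model is not in the labels and was not used. The fits were tested on simulated data with known differences.

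The cow numbers of the labels pair the muscles of a cow: over all probes the deviations of the 2 muscles correlated in each of 32 cows, from 0.11 to 0.77. With cow as a replicate block (paired analysis, duplicateCorrelation) the LT minus ST difference of SLC16A6 was 0.79 ± 0.12 (adjusted p = 7.0e-08). Correlations between muscles used permutation tests in Python (numpy and scipy). The members, lists and named genes were chosen with earlier results of these data known. SLC16A6 was described in full, with the other listed SLC16 genes that were tested, at most 4 genes past the threshold per other list (the 2 with the smallest adjusted p where none passed), and the 8 genes most and 3 least like it. LDHA, MYH7, MYL3 and ADIPOQ were named after their values were seen. Lists of muscle fibre, slow and fast fibre, blood, fat, immune, vessel, fibroblast and liver markers were also read. Some genes of the lists are not reported here and are not in the counts over the lists.

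Alternatives were other scalings, background corrections and filters, slide, scan day and cow as blocks, single cows left out, and the other probes. A protein or promoter sequence of the gene was not used here.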

Additional observations from a re-analysis of the deposited data

Results flagged for a closer look

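In the group-wise test for a single distant value (gap to the nearest cow over the range of the group, critical value 0.526 for 8 cows), 2 of 12 groups of SLC16A6 values were set apart, where chance gives about 1 in 20. Among stressed cows on the control diet, cow305 had an LT level of -2.23, beside -1.25 for the nearest cow. It was the lowest of the 8 cows in the ST too, at -3.22, and the lowest LT value on 5 of 5 probes of the custom set. Among limited stress cows on the control diet, cow270 had an LT level of -4.09, beside -2.96 for the nearest cow, was the lowest of its group in the ST at -4.78, and was the lowest on 5 of 5 set probes in the LT. Without cow305 the stress difference in the LT was 1.47, and without cow270 it was 1.30.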

How the results depend on the processing

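The LT minus ST difference kept its direction and its side of the threshold under each alternative tried, from 0.62 to 0.97, and from 0.75 to 0.82 with single cows left out. In limited stress cows it ran from 0.74 to 1.27, and from 0.87 to 1.02 with single cows left out. In stressed cows it did not pass with the control feature median (0.68) or the scan day as a block (0.62). The stress differences moved by less than the SD between cows, from 1.21 to 1.52 in the LT and from 1.45 to 1.85 in the ST, and from 1.29 to 1.47 and 1.62 to 1.80 with single cows left out. With the control feature median all probes shifted by -0.18 for stress in the LT, by 0.10 in the ST and by 0.19 for LT minus ST, so 0.97 is 0.79 beyond that shift. No alternative took a diet or interaction estimate past the threshold. The diet difference in the ST changed sign without the slide of 6 stressed cows (0.012), an alternative chosen after seeing the data. That in limited stress LT cows changed sign with the control feature median (0.30) and on 3 of the 5 set probes (at most 0.035), and ran from -0.24 to 0.079 with single cows left out; in the ST it ran from -0.34 to 0.0068. The diet effect of the LT minus that of the ST was 0.086 with the control feature median, 0.052 with no scaling and 0.0017 with normexp and quantile, and ran from -0.12 to 0.023 with single cows left out. Without the farthest cows the correlation of the muscles was 0.52 (permutation p = 0.057) and 0.25 (permutation p = 0.39). Of the listed genes, 21 passed for LT minus ST, and 9 with the control feature median. Of the 8 genes most like SLC16A6, 4 were shared with the control feature median, 4 with normexp and quantile and 5 with slide means subtracted. The replicate block changed no call of SLC16A6. The cause of these changes was not tested. The share of called probes that were higher for LT minus ST was 45.7%, and 82.6% with the control feature median, 73.3% with no scaling and 29.7% with normexp; for stress it was 56.7% in the LT and 37.6% in the ST, 69.0% and 88.3% with the control feature median, 71.2% and 91.5% with no scaling, and in the ST 90.3% with normexp and 63.9% with normexp and quantile.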
